A study of Rattus norvegicus with 10 samples.

Results

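DNA repair and damage checkpoint genes were followed in rat liver 24 h after sulfur mustard (SM). The 45 genes were listed by their known role, and the rule used no measured value, although earlier results of these data were known when the list was made. They fell into 8 pathways: direct reversal of alkylation (3 genes), base excision and single-strand break repair (11), nucleotide excision repair (11), crosslink repair (3), mismatch repair (2), homologous recombination (8), end joining (3) and checkpoint kinases (4). A probe of the array was matched to 32 of the 45 genes through its RefSeq accession, out of 13837 genes named in this way on the whole array. Of these 32 genes, 29 gave a signal above background and were tested. The genes Lig3, Ercc4, Ercc5, Ddb1, Ddb2, Fancg, Fancl, Msh6, Rad52, Xrcc3, Blm, Prkdc and Atr were not analysed here.

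The livers came from 10 male Sprague Dawley rats in 3 groups, with 1 array per rat. The 3 control rats received the solvent propylene glycol under the skin. The 4 SM rats received a single subcutaneous dose of 3.5 mg/kg SM, a blistering agent that alkylates DNA and links its strands. The 3 SM + MSTF rats received the same dose and, 1 h later, 120 mg/kg MSTF into the stomach, a mixture of salvianolic acids of Salvia miltiorrhiza and total flavonoids of Anemarrhena asphodeloides. MSTF alone was not analysed here, the age of the rats was not given in the sources used here, and whole liver was measured, so that fewer cells of a type and less RNA per cell cannot be told apart.

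Cells have several ways to mend alkylated DNA. Some damaged bases are repaired in place, others are cut out by a glycosylase and replaced through base excision repair, and bulky adducts are removed with a stretch of the strand by nucleotide excision repair. Crosslinks need the Fanconi anaemia proteins together with nucleases and homologous recombination, and double-strand breaks can also be sealed by end joining. The kinases ATM and ATR respond to such damage and, with CHEK2 and CHEK1 downstream of them, stop the cell cycle. These kinases act largely by phosphorylating proteins rather than through their own transcript levels.

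The signal of each probe was the background-subtracted intensity, quantile normalized over the 10 arrays and given on the log2 scale. Between 51.9% and 61.4% of the 41012 probes were well above background on an array. The lowest correlation of an array with another of its group was 0.977 to 0.990 over probes, which are not independent replicates. The arrays lay on 3 slides. The control arrays shared slide 1 with SM + MSTF array 3, the SM arrays filled slide 2, and SM + MSTF arrays 1 and 2 were on slide 3. The effect of SM and that of slide 2 therefore cannot be told apart, in SM against control or in SM + MSTF against SM. Of 51 cell type markers tested, 1 was called, the natural killer cell receptor Klrd1. It was lower in SM than in control by a log2 fold change of -1.22 ± 0.23 (2.32-fold; adjusted p = 0.0274, limma), higher in SM + MSTF than in SM by 1.15 ± 0.23 (2.22-fold; adjusted p = 0.0446), and well above background on 2 of the 4 SM arrays. All 5 natural killer cell markers tested had a lower mean in SM than in control, and their summed log2 level was 10.68 to 10.78 on control arrays, 9.90 to 11.4 on SM arrays and 10.4 to 11.6 on SM + MSTF arrays, with Ncr1 not well above background on any array. None of the 8 hepatocyte markers was called, and Apoa1 and Ttr had an unadjusted limma p under 0.05 in SM + MSTF against control (-0.44 and -0.49). The 7 cycling cell markers tested all had a lower mean in SM (median log2 fold change -0.999) and in SM + MSTF (-1.07) than in control. None of the 7 was called, and 6 in SM and 5 in SM + MSTF reached an unadjusted limma p under 0.05. The log2 of the summed signal of the 8 matched cycling cell markers was 11.2 to 11.8 on control arrays, 9.94 to 11.1 on SM arrays and 9.73 to 11.03 on SM + MSTF arrays. All 6 Kupffer cell and macrophage markers had a lower mean in SM and a higher mean in SM + MSTF than in control. The 4 erythroid and 2 neutrophil markers tested all had a higher mean in SM and in SM + MSTF. Of 2 B cell markers tested, Cd79b was at -2.18 (adjusted p = 0.126, limma) and Cd22 at 0.22 in SM against control. Of 6 stellate cell markers, 4 had a lower mean in SM and 6 in SM + MSTF. The part of these cell types in the repair gene values was not tested.

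None of the 29 repair and checkpoint genes tested was called in any of the 3 comparisons. A gene was called at a Benjamini-Hochberg adjusted p under 0.05 in limma and a fold change of at least 1.5. In SM against control, 0 of 29 genes were called, beside 2.40% of all 22991 probes tested. The count was 0 of 29 in SM + MSTF against control, beside 0% of all probes, and in SM + MSTF against SM, 0 of 29 were called, beside 1.28%. For 29 genes, counts of 0 are near these shares. The median absolute log2 fold change of the 29 genes was 0.14, 0.11 and 0.17 in the same order, beside 0.16, 0.14 and 0.17 over all probes. The calls over all probes depended on single arrays. Leaving out any 1 control or SM array took the 551 calls in SM against control to between 65 (without control array 2) and 330 (without SM array 2), and SM + MSTF against control went from 0 to 249 calls without SM + MSTF array 3, the array on the control slide. The methods' t-test with the same fold minimum also called 0 of 29 in each comparison, with or without adjustment. No gene of the 29 reached a 1.5-fold change in any comparison, whereas 7.92%, 5.49% and 7.99% of all probes did so in the same order. The 29 genes enter by their probe of highest signal, and these shares are over all tested probes. The largest differences were 1.49-fold in SM against control (Atm), 1.34-fold in SM + MSTF against control (Chek2) and 1.46-fold in SM + MSTF against SM (Atm).

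The intervals give the range of differences that the arrays allowed for each gene, without adjustment over genes and without a term for slide. In SM against control and in SM + MSTF against SM they bound the effects of SM and slide 2 together. They do not cover the choice of processing. In SM against control, the 95% interval lay inside a 1.5-fold change in either direction for 24 of 29 genes, compared with 59.98% of all probes. The other 5 genes were Atm, Ercc2, Nbn, Rad50 and Xpc. The interval lay inside this range in SM + MSTF against control for 23 of 29 genes and in SM + MSTF against SM for 20 of 29, compared with 59.6% and 58.4% of all probes. The median standard error of the 29 log2 fold changes was 0.12 in SM against control and in SM + MSTF against SM, and 0.13 in SM + MSTF against control. Over all probes it was 0.15 in the first 2 of these comparisons and 0.16 in the last. The 29 genes enter by their probe of highest signal, whereas all probes include dimmer ones. The shares are therefore not over like sets.

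**Figure D1:**
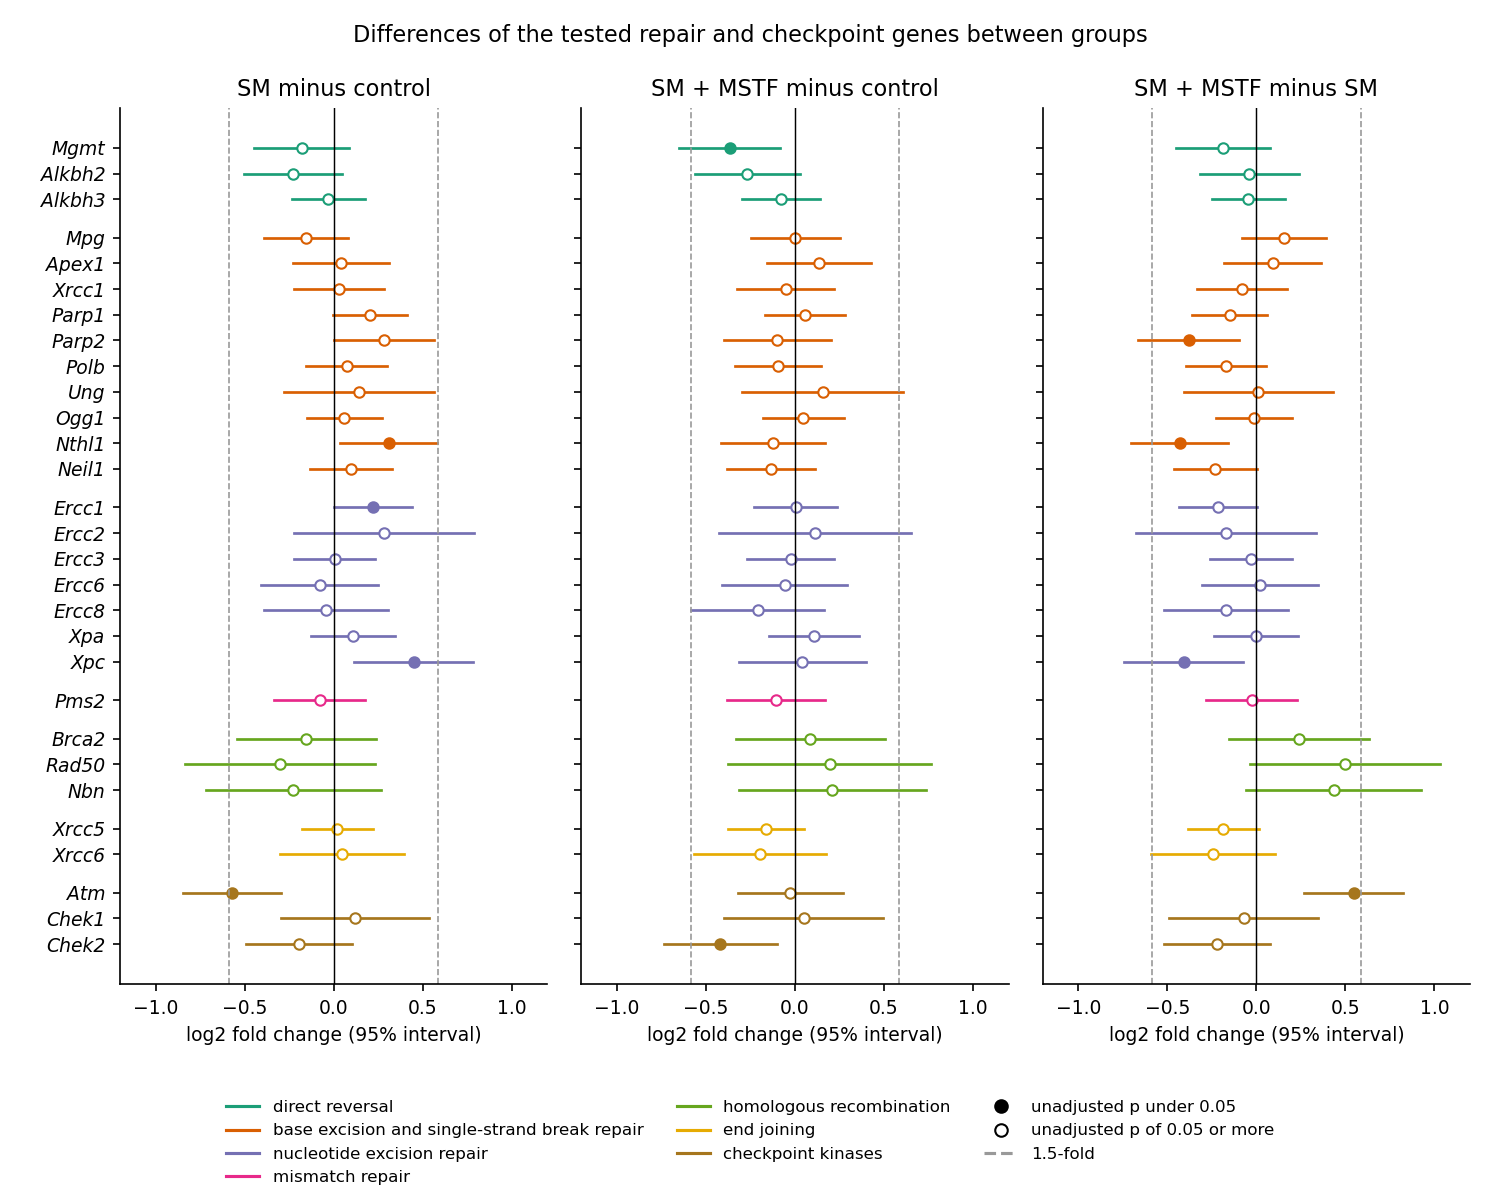
Log2 fold change with its 95% interval (limma) for the 29 tested genes, grouped by pathway, in SM minus control, SM + MSTF minus control and SM + MSTF minus SM. Filled points have an unadjusted p under 0.05 and dashed lines mark a 1.5-fold change, which no point passes; the point closest to it is Atm in SM minus control, at -0.57.

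A weaker rule marked only single genes. At an adjusted p under 0.05 with no fold minimum, limma marked 1 of 29 genes, Atm, in SM against control (2.78% of all probes), 0 in SM + MSTF against control (0%) and 0 in SM + MSTF against SM (1.39%). Counts were taken on each gene's probe of highest signal. At an unadjusted p under 0.05, Ercc1, Nthl1 and Xpc were higher (3 of 29, beside 9.37% of all probes) and Atm was lower (1 of 29, beside 7.04%) in SM than in control. No gene was higher in SM + MSTF than in control (4.38%) and Chek2 and Mgmt were lower (2 of 29, beside 5.18%). Atm was higher in SM + MSTF than in SM (1 of 29, beside 6.19%) and Nthl1, Parp2 and Xpc were lower (3 of 29, beside 9.74%). These shares of the repair genes were close to or below those of all probes. The arrays of the 2 groups did not overlap for 4 genes in SM against control (18.0% of all probes), 3 genes in SM + MSTF against control (15.5%) and 5 genes in SM + MSTF against SM (14.6%).

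Over the 29 genes the median log2 fold change was 0.03 in SM against control, -0.03 in SM + MSTF against control and -0.07 in SM + MSTF against SM, beside 0.03, 0.00 and -0.02 over all probes. SM had the higher mean for 17 genes and the lower for 12. Relative to SM, SM + MSTF had the higher mean for 8 genes and the lower for 21. Over all probes, SM had a higher mean than control for 56.3%, and SM + MSTF a higher mean than SM for 46.1%. Comparisons with SM share the SM arrays, and those with control share the control arrays, so their values stand side by side and are not independent of each other.

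**Figure D2:**
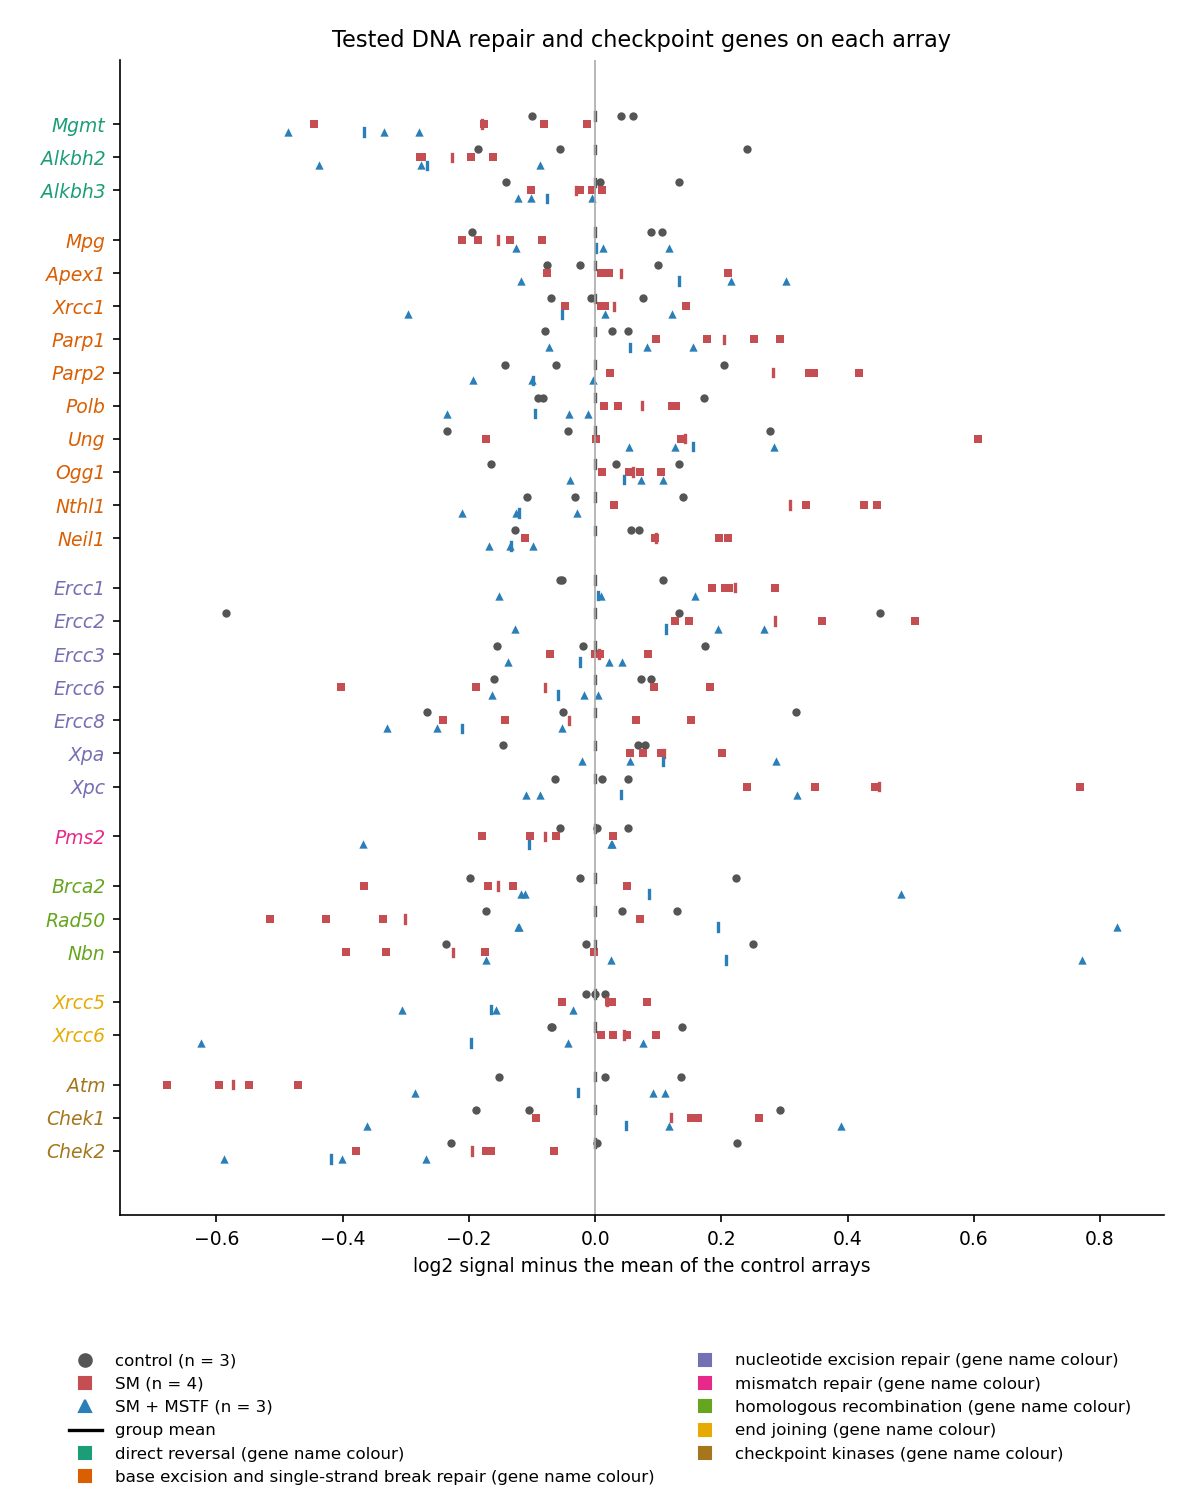
Each row is a tested gene, with its log2 signal on each array minus the mean of the 3 control arrays on the x axis; points are arrays, ticks are group means and the colour of a gene's name gives its pathway. For most genes the 3 groups overlap, and the exceptions include Atm, whose 4 SM arrays lie below the other arrays, and Xpc, whose 4 SM arrays lie above the control arrays.

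The start regions of 4 genes are shown, those with the smallest unadjusted p in SM against control (Atm, Xpc and Nthl1) and the direct reversal gene with the smallest one in SM + MSTF against control (Mgmt). Each is the RefSeq window of 250 bases before to 50 bases after the gene's start (build GRCr8), written 5′ to 3′ on the gene's strand. Capitals mark matches, on either strand, to the GC box GGGCGG, the CCAAT box CCAAT, the E2F site TTTCGCGC or TTTGGCGC, the cyclic AMP response element TGACGTCA and the ETS site CCGGAAG, and neighbouring or overlapping matches run together.
Atm, chr8:62828580-62828879, minus strand: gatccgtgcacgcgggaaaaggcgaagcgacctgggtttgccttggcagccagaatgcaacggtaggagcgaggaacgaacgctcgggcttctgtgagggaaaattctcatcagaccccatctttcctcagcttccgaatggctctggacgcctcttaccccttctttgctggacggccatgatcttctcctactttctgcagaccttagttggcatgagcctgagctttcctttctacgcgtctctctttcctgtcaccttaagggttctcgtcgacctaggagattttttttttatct
Xpc, chr4:125578035-125578334, minus strand: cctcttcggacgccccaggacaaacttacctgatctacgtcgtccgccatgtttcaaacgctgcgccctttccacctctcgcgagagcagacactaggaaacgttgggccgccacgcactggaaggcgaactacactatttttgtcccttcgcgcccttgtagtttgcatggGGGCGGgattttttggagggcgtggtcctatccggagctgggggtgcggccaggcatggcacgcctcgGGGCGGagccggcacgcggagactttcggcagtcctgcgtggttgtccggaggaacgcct
Nthl1, chr10:14160084-14160383, plus strand: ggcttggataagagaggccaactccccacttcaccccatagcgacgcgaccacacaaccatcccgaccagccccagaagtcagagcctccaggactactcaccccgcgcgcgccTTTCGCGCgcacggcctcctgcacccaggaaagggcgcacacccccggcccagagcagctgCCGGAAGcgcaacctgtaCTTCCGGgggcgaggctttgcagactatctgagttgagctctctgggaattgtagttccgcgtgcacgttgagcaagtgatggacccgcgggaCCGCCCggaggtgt
Mgmt, chr1:201140582-201140881, plus strand: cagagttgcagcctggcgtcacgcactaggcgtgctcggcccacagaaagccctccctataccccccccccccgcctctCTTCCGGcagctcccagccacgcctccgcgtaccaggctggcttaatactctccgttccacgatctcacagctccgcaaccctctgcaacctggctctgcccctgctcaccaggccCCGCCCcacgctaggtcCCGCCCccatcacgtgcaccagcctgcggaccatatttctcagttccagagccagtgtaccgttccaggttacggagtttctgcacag

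Xpc held 2 GC boxes, Nthl1 held 1 GC box, 1 E2F site and 2 ETS sites, and Mgmt held 2 GC boxes and 1 ETS site. In the Atm window none of these letters was found. Windows were in the table for 37 of the 45 genes and not for Polb, Xpa, Ddb2, Xrcc2, Nbn, Blm, Prkdc and Chek2. A GC box was found in 23 of the 37 windows (62.2%) and in 33.1% of all 33469 windows of the table. The ETS site was found in 14 (37.8%) beside 8.75% of all windows, and the CCAAT box in 15 (40.5%) beside 37.5%. The E2F site was found in the Nthl1 window alone (2.70% beside 0.792%) and the cyclic AMP response element in the Fancd2 window alone (2.70% beside 1.83%). The p53 response element, searched as 2 exact half-sites at most 13 bases apart, was found in 0 of 37 windows and in 0.0598% of all windows. The 37 windows are 1 per gene, whereas every window of the table entered the other share, and the windows were not matched for GC content. The shares are therefore not over like sets. A match is a description of the letters and not a site of binding, and motifs were counted separately, so that matches to different motifs may overlap.

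Among the direct reversal genes, which restore an alkylated base without cutting the strand, all 3 had a lower mean in both SM and SM + MSTF than in control. Over all probes, 56.3% had a higher mean in SM and 51.0% in SM + MSTF than in control. Mgmt, which takes the alkyl group from O6-alkylguanine onto itself, had log2 signals of 12.67, 12.51 and 12.65 on the control arrays, 12.60, 12.43, 12.53 and 12.17 on the SM arrays and 12.28, 12.33 and 12.13 on the SM + MSTF arrays. All SM + MSTF arrays lay below all control arrays, whereas the SM arrays overlapped both groups. Mgmt had a log2 fold change of -0.37 ± 0.13 (SE) in SM + MSTF against control (adjusted p = 0.446, limma; unadjusted p = 0.0168), -0.18 ± 0.12 in SM against control and -0.19 ± 0.12 in SM + MSTF against SM. Within slide 1, SM + MSTF array 3 differed from the control mean by -0.49 on the log2 scale.

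Alkbh2, a dioxygenase that removes methyl groups from double-stranded DNA, had signals of 9.83, 10.12 and 9.70 in control, 9.60, 9.72, 9.69 and 9.61 in SM and 9.44, 9.61 and 9.79 in SM + MSTF. Its groups overlapped. The log2 fold change was -0.23 ± 0.12 in SM against control (95% interval -0.50 to 0.05; adjusted p = 0.408, limma), -0.27 ± 0.13 in SM + MSTF against control and -0.04 ± 0.12 in SM + MSTF against SM. Alkbh3, its relative for single-stranded DNA, differed by -0.03 and -0.08 from control, in SM and SM + MSTF, with intervals of -0.23 to 0.17 and -0.30 to 0.14.

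Of the base excision and single-strand break repair genes, 10 of 11 were tested. Of the 10, 9 had a higher mean in SM than in control (56.3% of all probes), by a log2 fold change of 0.03 to 0.31. The exception was Mpg, the glycosylase that removes alkylated purines, at -0.15. Its signals were 10.47, 10.49 and 10.19 in control, 10.25, 10.20, 10.30 and 10.17 in SM and 10.26, 10.40 and 10.50 in SM + MSTF, and the groups overlapped. The interval was -0.39 to 0.08 in SM against control, -0.25 to 0.25 in SM + MSTF against control and -0.08 to 0.39 in SM + MSTF against SM. A second probe of Mpg had the opposite sign in all 3 comparisons (0.06, -0.07 and -0.13), so no direction is given for this gene.

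Nthl1, a glycosylase of oxidized pyrimidines, had the smallest p of the pathway. Its signals were 9.52, 9.28 and 9.35 in control, 9.72, 9.83, 9.81 and 9.41 in SM and 9.26, 9.36 and 9.17 in SM + MSTF. The SM arrays other than array 4 lay above all control arrays, and all 4 SM arrays lay above the SM + MSTF arrays. In SM against control the log2 fold change was 0.31 ± 0.12 (1.24-fold; adjusted p = 0.241, limma; unadjusted p = 0.0305). In SM + MSTF against SM it was -0.43 ± 0.12 (1.35-fold lower; adjusted p = 0.144, limma; unadjusted p = 0.0058), and in SM + MSTF against control -0.12 ± 0.13.

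Parp1 and Parp2 bind DNA breaks and mark them with poly(ADP-ribose), which recruits the scaffold protein XRCC1. The Parp1 probe with the highest signal read 11.89, 12.02 and 12.00 in control, 12.27, 12.07, 12.15 and 12.23 in SM and 12.13, 12.06 and 11.90 in SM + MSTF. Its SM arrays did not overlap the control arrays, at a log2 fold change of 0.20 ± 0.09 (adjusted p = 0.317, limma). The second Parp1 probe, at 0.27 ± 0.10 (adjusted p = 0.230, limma; unadjusted p = 0.0271), did not overlap either. The Parp2 probe with the highest signal read 9.68, 9.41 and 9.33 in control, 9.82, 9.81, 9.89 and 9.50 in SM and 9.47, 9.38 and 9.28 in SM + MSTF. All SM arrays lay above all SM + MSTF arrays, at -0.38 ± 0.13 in SM + MSTF against SM (adjusted p = 0.198, limma; unadjusted p = 0.0136). The second Parp2 probe gave 0.07 ± 0.13 for the same comparison, opposite in sign.

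The other base excision genes had smaller differences in SM against control. These were Apex1, the main abasic site endonuclease, the scaffold Xrcc1, the polymerase Polb and the glycosylases Ung, Ogg1 and Neil1. Their log2 fold changes in SM against control were between 0.03 (Xrcc1) and 0.14 (Ung), and in SM + MSTF against control between -0.13 (Neil1) and 0.15 (Ung). Polb differed by -0.17 ± 0.10 in SM + MSTF against SM without overlap of the arrays (adjusted p = 0.425, limma), and Neil1 by -0.23 ± 0.10 (adjusted p = 0.317, limma). The pathway's median log2 fold change was 0.09 in SM against control, -0.03 in SM + MSTF against control and -0.12 in SM + MSTF against SM.

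In nucleotide excision repair, 7 of 11 genes were tested, and 5 of the 7 had a higher mean in SM than in control (56.3% of all probes). Xpc, which recognizes distorted DNA and starts the global branch of the pathway, had the highest log2 fold change of the 29 genes in SM against control. Its signals were 8.37, 8.41 and 8.29 in control, 9.12, 8.60, 8.80 and 8.71 in SM and 8.25, 8.68 and 8.27 in SM + MSTF. All 4 SM arrays lay above the 3 control arrays, and SM + MSTF array 2 lay within the SM range while the other 2 lay below the control arrays. Xpc had a log2 fold change of 0.45 ± 0.15 in SM against control (1.37-fold, interval 0.12 to 0.78; adjusted p = 0.160, limma; unadjusted p = 0.0133). In SM + MSTF against SM it was -0.41 ± 0.15 (adjusted p = 0.235, limma; unadjusted p = 0.0212) and in SM + MSTF against control 0.04 ± 0.16.

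Ercc1, which with ERCC4 forms the nuclease that cuts 5′ of the lesion and also acts on crosslinks, had signals of 9.56, 9.40 and 9.40 in control, 9.64, 9.67, 9.74 and 9.66 in SM and 9.46, 9.61 and 9.30 in SM + MSTF. The SM arrays lay above all other arrays. The log2 fold change was 0.22 ± 0.10 in SM against control (1.17-fold; adjusted p = 0.295, limma; unadjusted p = 0.0466), -0.22 ± 0.10 in SM + MSTF against SM (adjusted p = 0.316) and 0.01 ± 0.10 in SM + MSTF against control. Of the helicases of TFIIH, Ercc3 differed by 0.01 ± 0.10 and Ercc2 by 0.29 ± 0.23 in SM against control, and the Ercc2 interval of -0.22 to 0.79 was the widest of the pathway. Ercc6 and Ercc8, which act where RNA polymerase has stalled, differed by -0.08 and -0.04, with a second Ercc6 probe at 0.11, opposite in sign, and Xpa, which binds the opened lesion, by 0.11. In SM + MSTF against SM, 6 of the 7 genes had the lower mean, where 46.1% of all probes had the higher mean. The pathway's median was -0.17 there, beside 0.11 in SM against control and 0.01 in SM + MSTF against control.

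None of the 3 crosslink repair members gave a value. Fancd2, the Fanconi anaemia protein that is ubiquitinated at a crosslink, was not well above background on any of the 10 arrays, and Fancg and Fancl were not analysed here. Brca1 and Xrcc2 of homologous recombination were also not well above background on any array. No fold change is given for Fancd2, Brca1 and Xrcc2. Of 15 other crosslink repair genes listed, 6 were tested (Fancc, Fance, Fan1, Usp1, Mus81 and Dclre1a), and none was called. Their log2 fold changes were -0.18 to 0.27 in SM against control, -0.17 to 0.23 in SM + MSTF against control and -0.26 to 0.33 in SM + MSTF against SM.

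Homologous recombination was tested through Brca2, a tumour suppressor needed for this pathway, and through Rad50 and Nbn, subunits of the complex that holds broken ends and activates ATM. All 3 had a lower mean in SM than in control and a higher mean in SM + MSTF. Of all probes, 56.3% had a higher mean in SM and 51.0% in SM + MSTF than in control. Rad50 read 5.88, 6.18 and 6.09 in control, 5.62, 6.12, 5.71 and 5.53 in SM and 6.87, 5.93 and 5.93 in SM + MSTF. SM + MSTF array 1 stood above the other arrays and the remaining arrays overlapped. For Rad50 the log2 fold change was 0.50 ± 0.24 in SM + MSTF against SM (interval -0.04 to 1.03; adjusted p = 0.339, limma), and without SM + MSTF array 1 it was 0.18. In SM against control it was -0.30 ± 0.24 (interval -0.83 to 0.23).

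Nbn read 10.03, 10.26 and 10.52 in control, 10.27, 10.10, 9.94 and 9.88 in SM and 10.10, 10.30 and 11.04 in SM + MSTF. SM + MSTF array 3 stood highest, and it lay 0.77 above the control mean within slide 1. Its log2 fold change was 0.43 ± 0.22 in SM + MSTF against SM (adjusted p = 0.358, limma) and -0.23 ± 0.22 in SM against control. Brca2 differed by 0.24 ± 0.17 and -0.15 ± 0.17 in the same comparisons, and on SM + MSTF array 3 it lay 0.49 above the control mean. For each of the 3 genes the higher SM + MSTF mean came with 1 array above the rest, array 1 for Rad50 and array 3 for Nbn and Brca2.

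Pms2, the mismatch repair endonuclease subunit, was the tested gene of its pathway. It read 8.15, 8.19 and 8.09 in control, 8.17, 8.08, 8.04 and 7.96 in SM and 7.77, 8.17 and 8.17 in SM + MSTF. The groups overlapped, at log2 fold changes of -0.08 ± 0.11, -0.11 ± 0.12 and -0.03 ± 0.11 in SM against control, SM + MSTF against control and SM + MSTF against SM. The first of these had an interval of -0.34 to 0.18.

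End joining was tested through Xrcc5 and Xrcc6, which encode Ku80 and Ku70, the ring that grips a broken end. Xrcc5 read 7.77, 7.80 and 7.78 in control, 7.80, 7.87, 7.81 and 7.73 in SM and 7.48, 7.63 and 7.75 in SM + MSTF. The SM + MSTF arrays lay below all control arrays. Its log2 fold change was -0.17 ± 0.10 in SM + MSTF against control (adjusted p = 0.608, limma), 0.02 ± 0.09 in SM against control and -0.19 ± 0.09 in SM + MSTF against SM. Xrcc6 read 8.51, 8.71 and 8.51 in control, 8.63, 8.67, 8.59 and 8.60 in SM and 8.65, 8.53 and 7.95 in SM + MSTF. SM + MSTF array 3 was the lowest and the other arrays overlapped, at -0.24 ± 0.16 in SM + MSTF against SM (interval -0.59 to 0.10). Without array 3 this value was -0.03.

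Of the checkpoint kinases, Atm gave the smallest p of the 29 genes. Its main probe read 4.83, 5.12 and 4.997 in control, 4.51, 4.38, 4.43 and 4.30 in SM and 5.09, 4.70 and 5.07 in SM + MSTF. The 4 SM arrays lay below the other 6 arrays. Atm had a log2 fold change of -0.57 ± 0.12 in SM against control (1.49-fold lower, interval -0.85 to -0.30; adjusted p = 0.0428, limma), 0.55 ± 0.12 in SM + MSTF against SM (1.46-fold, interval 0.27 to 0.82; adjusted p = 0.0703) and -0.03 ± 0.13 in SM + MSTF against control.

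The Atm probe was dim. It was well above background on all 10 arrays, where the lowest signal of any probe well above background was between 3.78 and 4.83. With normexp background correction the log2 fold change in SM against control was -0.14 (adjusted p = 0.307, limma), outside the interval of the main fit. A random block for slide gave an adjusted p of 0.128. Leaving out single arrays gave an adjusted p between 0.0266 and 0.173, over 0.05 without any 1 of the control or SM arrays or without SM + MSTF array 1. In SM + MSTF against SM, leaving out SM + MSTF array 2 gave 0.67 (adjusted p = 0.0410), which passed the full rule. Over all settings tried, the adjusted p in SM against control was 0.0266 to 0.307. A second probe of Atm was well above background on 1 of the 10 arrays and gave no value.

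Chek2, a kinase downstream of ATM, read 6.57, 7.02 and 6.80 in control, 6.63, 6.73, 6.42 and 6.62 in SM and 6.53, 6.39 and 6.21 in SM + MSTF. The SM + MSTF arrays lay below all control arrays, with SM array 3 within their range. The log2 fold change was -0.42 ± 0.14 in SM + MSTF against control (1.34-fold lower, interval -0.74 to -0.10; adjusted p = 0.435, limma; unadjusted p = 0.0152), -0.20 ± 0.13 in SM against control and -0.22 ± 0.13 in SM + MSTF against SM. Within slide 1, SM + MSTF array 3 differed from the control mean by -0.59.

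Chek1, the kinase downstream of ATR, read 6.36, 6.44 and 6.84 in control, 6.45, 6.70, 6.80 and 6.71 in SM and 6.93, 6.66 and 6.18 in SM + MSTF. The groups overlapped. Its log2 fold changes were 0.12 ± 0.19, 0.05 ± 0.20 and -0.07 ± 0.19, in SM against control, SM + MSTF against control and SM + MSTF against SM, and the first had an interval of -0.30 to 0.54.

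**Figure D3:**
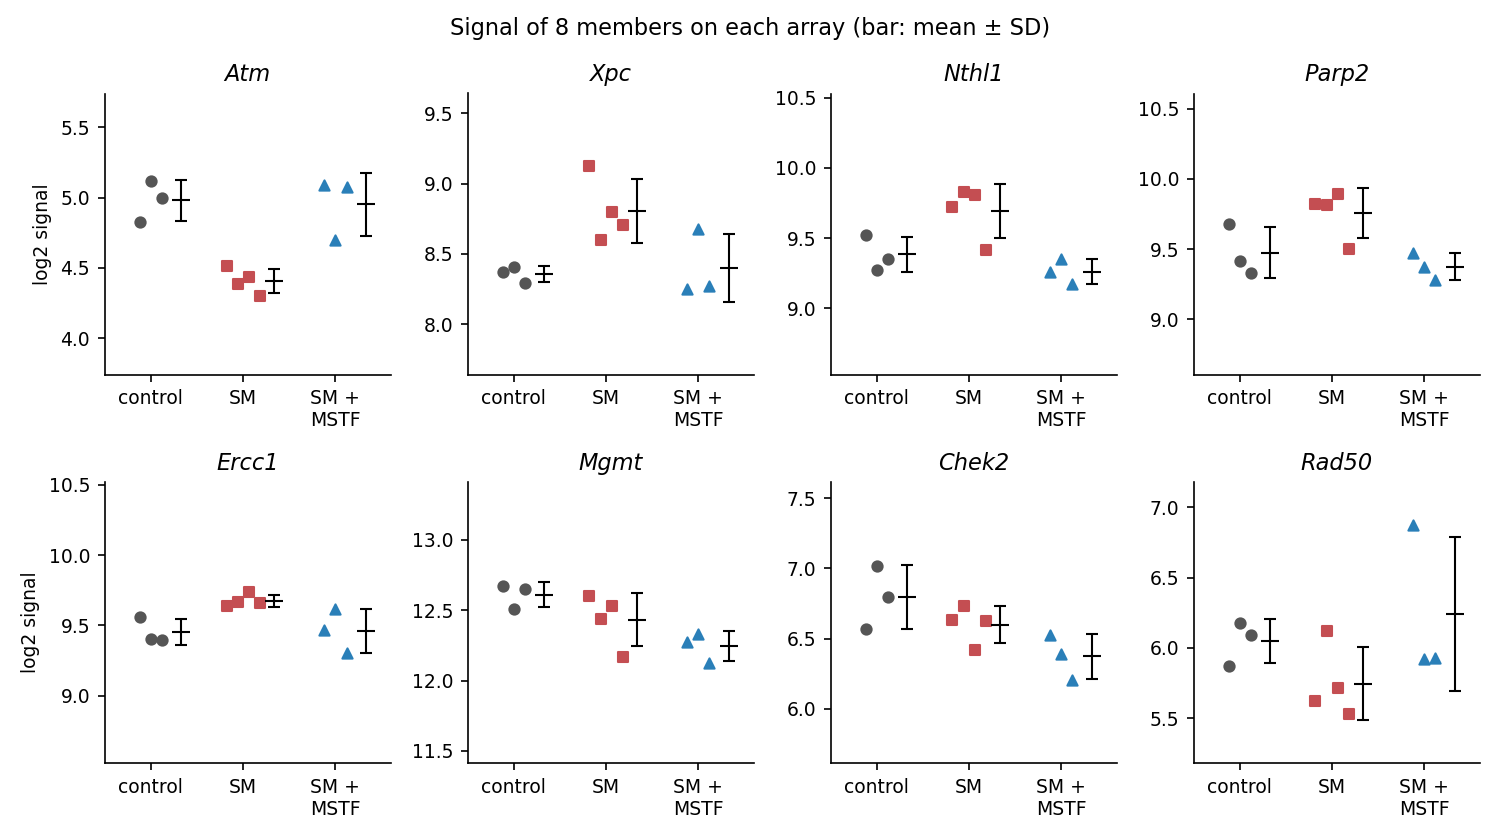
Log2 signal on each array for 8 genes in the control, SM and SM + MSTF groups; each panel spans 2 log2 units, and the bar beside the points gives the mean and the SD of the group. In SM, the Atm arrays are at 4.30 to 4.51, below both other groups, and the Xpc arrays are at 8.60 to 9.12, above all control arrays.

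The pathways were set side by side by the median, over their tested genes, of the log2 signal minus the control mean on each array. For base excision repair this median was 0.05 to 0.12 on the SM arrays, above the control arrays (-0.01 to 0.00), and -0.13 to 0.03 on the SM + MSTF arrays. For nucleotide excision repair it was 0.06 to 0.20 in SM, -0.05 to 0.07 in control and -0.09 to 0.04 in SM + MSTF, with SM and control arrays overlapping. For homologous recombination it was -0.39 to -0.17 in SM, -0.17 to 0.13 in control and -0.12 to 0.49 in SM + MSTF. Direct reversal lay at -0.27 to -0.01 in SM and -0.33 to -0.12 in SM + MSTF, beside -0.10 to 0.06 in control. End joining lay at -0.01 to 0.09 in SM and -0.33 to -0.10 in SM + MSTF, beside -0.04 to 0.08 in control. Because each gene's control mean was subtracted, the control values centre on 0 by construction and those of the other groups do not. Gaps to the control arrays are therefore in part built in. The median log2 fold change in SM against control was 0.03 over all probes. These medians of the pathways rest on 2 to 10 genes each, and no test was made of them.

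**Figure D4:**
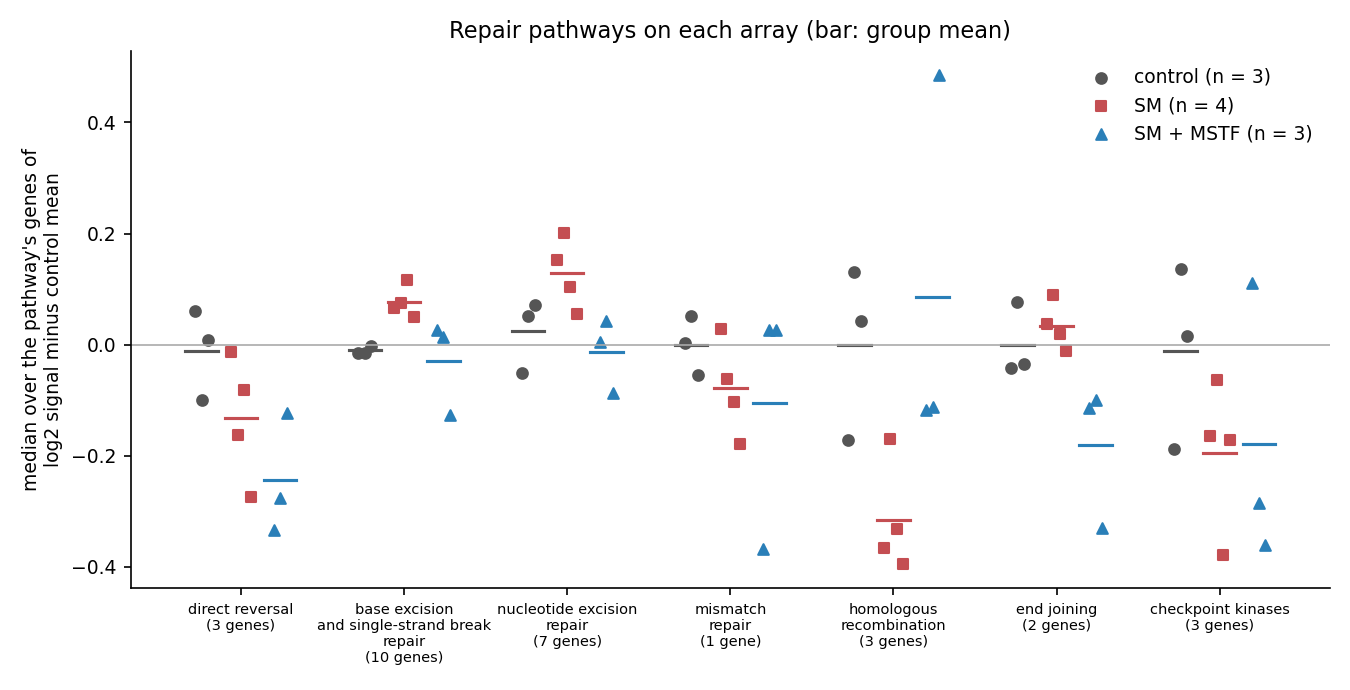
Median log2 signal minus the control mean over the tested genes of each pathway, 1 point per array, with bars for the group means; mismatch repair is Pms2 alone. The SM arrays of base excision repair lie at 0.05 to 0.12, and the highest point of the plot is SM + MSTF array 3 in homologous recombination, at 0.49.

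A list of 100 other repair genes was examined in the same way, of which 76 matched a probe and 64 were tested. None of the 64 was called in any of the 3 comparisons. At an unadjusted limma p under 0.05, Fance, Lig4 and Mutyh were higher and Pms1 and Rbbp8 lower in SM than in control (5 of 64), Mutyh and Polh higher and Gtf2h4 and Rpa3 lower in SM + MSTF than in control (4 of 64), and H2ax, Pms1 and Rad17 higher and Cul4a, Exo1, Fance, Gtf2h4 and Mnat1 lower in SM + MSTF than in SM (8 of 64). Over all probes the shares higher and lower were 9.37% and 7.04%, 4.38% and 5.18%, and 6.19% and 9.74%, so these counts were not above the background. The median log2 fold change of the 64 genes was 0.02, 0.00 and -0.01 in the 3 comparisons. These values take each gene's probe of highest signal, and second probes could differ. A second probe of Tdg was at 0.46 in SM against control (unadjusted p = 0.00645, limma), where its main probe was at -0.16. In SM + MSTF against SM the second probe was at -0.53 (unadjusted p = 0.00261, limma) and the main probe at 0.07.

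Pms1, a mismatch repair gene, had the largest difference of that list in both comparisons with SM. It read 6.77, 8.33 and 6.79 in control, 5.57, 5.71, 5.66 and 5.50 in SM and 8.38, 6.98 and 6.10 in SM + MSTF. All SM arrays lay below all other arrays, and the control and SM + MSTF arrays were widely spread. Pms1 had a log2 fold change of -1.69 ± 0.51 in SM against control (adjusted p = 0.131, limma) and 1.54 ± 0.51 in SM + MSTF against SM (adjusted p = 0.199).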

How the data were processed

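Per the labels and the study's methods, liver RNA was labelled with Cy3 and hybridised to one-colour Agilent arrays, 1 per rat. The authors read the spots with Feature Extraction 10.7, and the deposited intensity per spot is background-subtracted. The authors also deposited log2 values, quantile normalized in GeneSpring, which served as an alternative. Here control spots and outlier spots (76 to 118 per array) were left out, and the intensity was quantile normalized, put on the log2 scale and averaged per probe (R 4.3.3, limma 3.58.1). Of 41012 probes, 22991 stayed, those that all arrays of some group showed well above background. All 10 arrays entered 1 limma fit, and p-values were adjusted by Benjamini-Hochberg over these probes. Precision is limited by the number of arrays. The files use an older rat assembly than the gene table (GRCr8), so probes were named by accession (17512 named, 23500 not), with no coordinates. A gene's main probe was that of highest mean signal. Values on each array are given for genes called in any comparison, those of the smallest p in a pathway and 8 genes chosen for their role. Genes at an unadjusted p under 0.05 or without overlap, except Polb, were added after their values were seen. Values of Nbn are also given, outside these rules. The members and lists were chosen with earlier results of these data known. Each number marks a separate rat, and the main fit did not pair arrays by number. Same-numbered arrays deviated together by r = -0.0993 to 0.169. These values were not compared with differently numbered arrays, so they cannot decide on pairing. The procedure was tested on simulated data.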

Additional observations from a re-analysis of the deposited data

How the results depend on the processing

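Of 1387 alternative values for 57 results, 1337 kept the direction and side of the threshold or, for counts and medians, moved by less than 1.5 times or 1 SD. Of these, 11 were pathway medians of the opposite sign. With no fold minimum, the count of called repair genes in SM against control was 1 (Atm), and without single arrays the count in SM + MSTF against SM was 0 to 1 (Atm, without SM + MSTF array 2). With the replicate block, 0 genes were called in each comparison, and it changed no call; over all probes it left 52 calls in SM against control, against 551, and 65 in SM + MSTF against SM, against 294. A random slide block left 86 calls in SM against control. Among the other repair genes, 1 was called (Pms1) in SM against control with only the groups compared, with unadjusted p and with the methods' t-test unadjusted, 1 (Pms1) in SM + MSTF against SM with the last 2 settings, and 0 to 1 there without single arrays (Rad54b, without SM + MSTF array 2, which is well above background on the other 2 SM + MSTF arrays alone and was tested only there).

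With slide as a fixed term, so that SM + MSTF array 3 alone stood against control, the median log2 fold change in SM + MSTF against control was -0.12 over all tested members, -0.12 in direct reversal, -0.13 in base excision repair, -0.0869 in nucleotide excision repair, 0.49 in homologous recombination and -0.36 in checkpoint kinases. It reversed Atm (0.0923), Chek1 (-0.36), Pms2 (0.0262), Rad50 (-0.12) and Xpc (-0.0869) there. A random slide block reversed Chek1 (-0.00836), and Mpg was -0.000805 with 75th percentile scaling and -0.0342 over its probes. With normexp, base excision repair in SM + MSTF against SM was -0.0293. In SM + MSTF against control normexp also turned base excision repair (0.0292) and nucleotide excision repair (-0.0139), and the random slide block turned the latter (-0.0167). The causes were not tested.

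Without single arrays, medians in SM against control ranged from 0.0316 to 0.129 in base excision repair and from 0.0356 to 0.143 in nucleotide excision repair, in SM + MSTF against control from -0.0909 to -0.0151 over all members and from -0.35 to -0.15 in direct reversal, and in SM + MSTF against SM from -0.127 to -0.0332 in direct reversal and from 0.15 to 0.52 in homologous recombination. Medians whose sign turned were, in SM + MSTF against control, homologous recombination (-0.0735 to 0.299), nucleotide excision repair (-0.0579 to 0.0337), base excision repair (-0.0572 to 0.0213) and checkpoint kinases (-0.122 to 0.0141), and in SM + MSTF against SM checkpoint kinases (-0.242 to 0.133). Genes whose sign turned were Xrcc5 in SM against control (-0.00122 to 0.0436), Atm (-0.10 to 0.10), Chek1 (-0.12 to 0.25), Mpg (-0.10 to 0.0645), Pms2 (-0.17 to 0.0259), Rad50 (-0.12 to 0.35), Xpc (-0.10 to 0.12) and Xrcc6 (-0.33 to 0.0160) in SM + MSTF against control, and Alkbh2 (-0.13 to 0.0459), Chek1 (-0.24 to 0.13) and Pms2 (-0.0921 to 0.10) in SM + MSTF against SM.

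The value of Atm, whose probe was near background, depended on the background correction. With 3 to 4 arrays per group, small changes can be missed.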
